A study of Mus musculus with 16 samples.

Results

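The genes followed here through mouse skin were grouped as genes of fat cell identity or of hormones made by fat cells: Adipoq, Lep, Retn, Cfd, Pparg, Cebpa, Cidec, Acvr1c, Slc2a4 and Car3. At least Cebpa, Slc2a4 and Car3 are also made by other cells of skin, as given below. All 10 were chosen by symbol and were found among the 32078 genes of the deposited table. Whole skin was taken from mice aged 7 weeks, and its RNA was sequenced in 16 libraries, 2 for each of 8 groups. 4 groups had sodium dodecyl sulfate (SDS, an irritant detergent) with Topsym and 4 had SDS alone, in both cases at days 0, 1, 3 and 5. Topsym is known as a brand of fluocinonide, a potent topical glucocorticoid, which the labels do not state. All groups carry SDS in their titles, and no group at days 1, 3 or 5 is without it, so a change from day 0 mixes SDS with time and with the animals and tissue sampled. The labels give a topical treatment of 4 days although the titles run to day 5. The sources used here do not give when SDS and Topsym were first applied, the treatment behind the title of the Topsym group at day 0, or the strain and sex of the mice. Since the labels do not tie the 2 libraries of a group to separate animals, the p-values below reflect the spread between libraries alone, and that spread may be technical.

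Mouse skin holds a layer of white fat below the dermis, and under that a sheet of skeletal muscle, so whole skin carries RNA of both. The nuclear receptor Pparg and the transcription factor Cebpa drive the formation of fat cells and the genes of the mature cell. Mature fat cells secrete adiponectin (Adipoq), leptin (Lep), in mice resistin (Retn), and adipsin (Cfd, complement factor D). Cidec coats the large lipid droplet and promotes droplet fusion. Acvr1c encodes ALK7, a receptor for activin B and related ligands that restrains lipolysis in fat. Slc2a4 encodes GLUT4, the glucose transporter that insulin moves to the surface of fat and muscle cells, and Car3 encodes carbonic anhydrase 3, abundant in both tissues.

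In GRCm38 coordinates of GENCODE M21, the genes lie at chr16:23146536-23158028 (Adipoq, ENSMUSG00000022878), chr6:29060220-29073877 (Lep, ENSMUSG00000059201), chr8:3655770-3660110 (Retn, ENSMUSG00000012705), chr10:79890853-79892655 (Cfd, ENSMUSG00000061780), chr6:115360951-115490399 (Pparg, ENSMUSG00000000440), chr7:35119293-35121928 (Cebpa, ENSMUSG00000034957), chr6:113424634-113435760 (Cidec, ENSMUSG00000030278), chr2:58267453-58357895 (Acvr1c, ENSMUSG00000026834), chr11:69942539-69948188 (Slc2a4, ENSMUSG00000018566) and chr3:14863512-14872523 (Car3, ENSMUSG00000027559). The sources used here do not say whether reads were counted by strand. Exons of Acvr1c share 168 bases with Gm13544 and those of Cebpa share 51 bases with Gm45091, both on the opposite strand, so those genes' reads could be mixed.

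Lep and Cidec moved together at day 1 and apart at day 3, so the 250 bases upstream of their starts are shown, 5′ to 3′ on the strand of the gene, from RefSeq (GRCm38.p6). Capitals mark a match to TTGCGCAA, the core sequence to which C/EBP factors such as Cebpa bind. The windows are chr6:29059971-29060220 on the plus strand for Lep and chr6:113435761-113436010 on the minus strand for the outer of 2 Cidec starts.
Lep: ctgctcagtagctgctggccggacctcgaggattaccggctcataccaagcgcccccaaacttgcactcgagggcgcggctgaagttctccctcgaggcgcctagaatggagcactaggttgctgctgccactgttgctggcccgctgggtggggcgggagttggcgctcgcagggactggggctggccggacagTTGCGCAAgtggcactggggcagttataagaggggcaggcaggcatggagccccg
Cidec: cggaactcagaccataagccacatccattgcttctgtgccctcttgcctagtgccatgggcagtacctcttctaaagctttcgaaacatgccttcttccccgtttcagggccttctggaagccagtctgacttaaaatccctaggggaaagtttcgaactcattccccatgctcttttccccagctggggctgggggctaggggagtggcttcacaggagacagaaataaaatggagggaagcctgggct
The match in Lep lies 48 to 55 bases upstream of the start. Of 12 promoters of 8 of the genes in the RefSeq table it was found in that of Lep alone, and 0.164% of 32851 promoters held it in the same window. TTGCGCAA was searched on both strands and was chosen after other results were known. Also searched on both strands were the DR1 element bound by the dimer of PPAR and RXR (in 0.0335% of all promoters), the palindromic glucocorticoid response element (0.00913%) and TTGCNNCAA (1.74%), and none of the 12 promoters held any of them. A match in this window is a description of the letters and shows no binding.

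Values are normalised reads: recovered read counts divided by the size factor of the library. Libraries held 20219306 to 32066246 reads at days 0, 1 and 3, and 15199656 to 18880060 at day 5. The day 5 libraries stood apart. They detected 19885 to 20774 genes, against 22875 to 23740 in the others, and their 10 highest genes took 10.3 to 14.8% of reads, against 4.91 to 7.06%. Their normalised values summed to 25770787 to 30655968, against 20251910 to 21729130 elsewhere. Scaling to total reads instead, an alternative chosen after the data were seen, moved the median change of all genes by up to 0.58 on the log2 scale, most of all in the day 5 comparisons. Among low counts, from 1 to 20 reads, 69.9 to 76.8% were even in each library. If mates of a fragment were counted apart, which was not tested, counting intervals taken read by read are too narrow. A floor of 3 reads for a group at 0 is then too low, and a fold given as at least some value is too high. Intervals and floors cover counting error only.

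Each change is a difference between groups in log2(normalised reads + 1), given with the standard error (SE) of limma, which was fitted over the 8 groups and the 19189 genes with at least 10 normalised reads in at least 2 libraries. Adding 1 shrinks the change of a low gene, but where 1 library of a group is at 0 the mean of logs can also overstate it. Acvr1c at day 5 with Topsym was such a case, with a larger fall against day 0 in limma than in edgeR (-1.41) or DESeq2 (-1.48). Calls are made at a Benjamini-Hochberg adjusted p under 0.05 over all genes tested. All 10 genes passed the filter. Every mean is followed by the SD of 2 libraries. In whole skin, fewer cells of a type and less RNA per cell cannot be told apart.

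Per kilobase of merged exons, the 10 genes spanned more than 3 orders of magnitude in SDS skin at day 0. Car3 stood highest at 13521 ± 714 normalised reads per kilobase, and Cfd followed at 11566 ± 598. Cebpa had 2724 ± 208, Adipoq 1152 ± 121 and Cidec 934 ± 30.0 per kilobase. Slc2a4 had 535 ± 42.9, Retn 495 ± 11.7, Pparg 125 ± 13.6 and Lep 93.1 ± 9.05 per kilobase. Acvr1c, the receptor, stood lowest at 4.97 ± 0.0766 per kilobase. Other fat cell genes were plentiful in the same libraries, among them the fatty acid carrier Fabp4 with 4999 and 4807 normalised reads and the droplet protein Plin1 with 662 and 653. Ucp1, the defining gene of brown fat, stayed between 0 and 6.03 normalised reads in the 16 libraries.

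With SDS alone, the genes did not move as a block. At day 1 against day 0, Lep, Cidec and Cebpa rose while Adipoq, Retn, Cfd and Car3 fell. By day 3 the hormones Adipoq and Cfd and the regulator Pparg stood above day 0, and Cidec stood higher still. At day 5 all but Cebpa were lower than at day 0, and 2 reads of Lep were left in the group. Of the 10 genes, 3 were called higher and 4 lower at day 1 against day 0, where 12.8% of all genes tested were called higher and 13.5% lower. At day 3 against day 0, 5 were higher and 2 lower (25.4% and 24.2% of all genes), and at day 5 against day 0, 1 was higher and 9 lower (30.7% and 35.8%). The median change of the 10 was -0.18 at day 1, 0.36 at day 3 and -3.73 at day 5 on the log2 scale, beside -0.03, -0.01 and -0.09 for all genes tested. The 3 comparisons share the day 0 libraries.

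**Figure D1:**
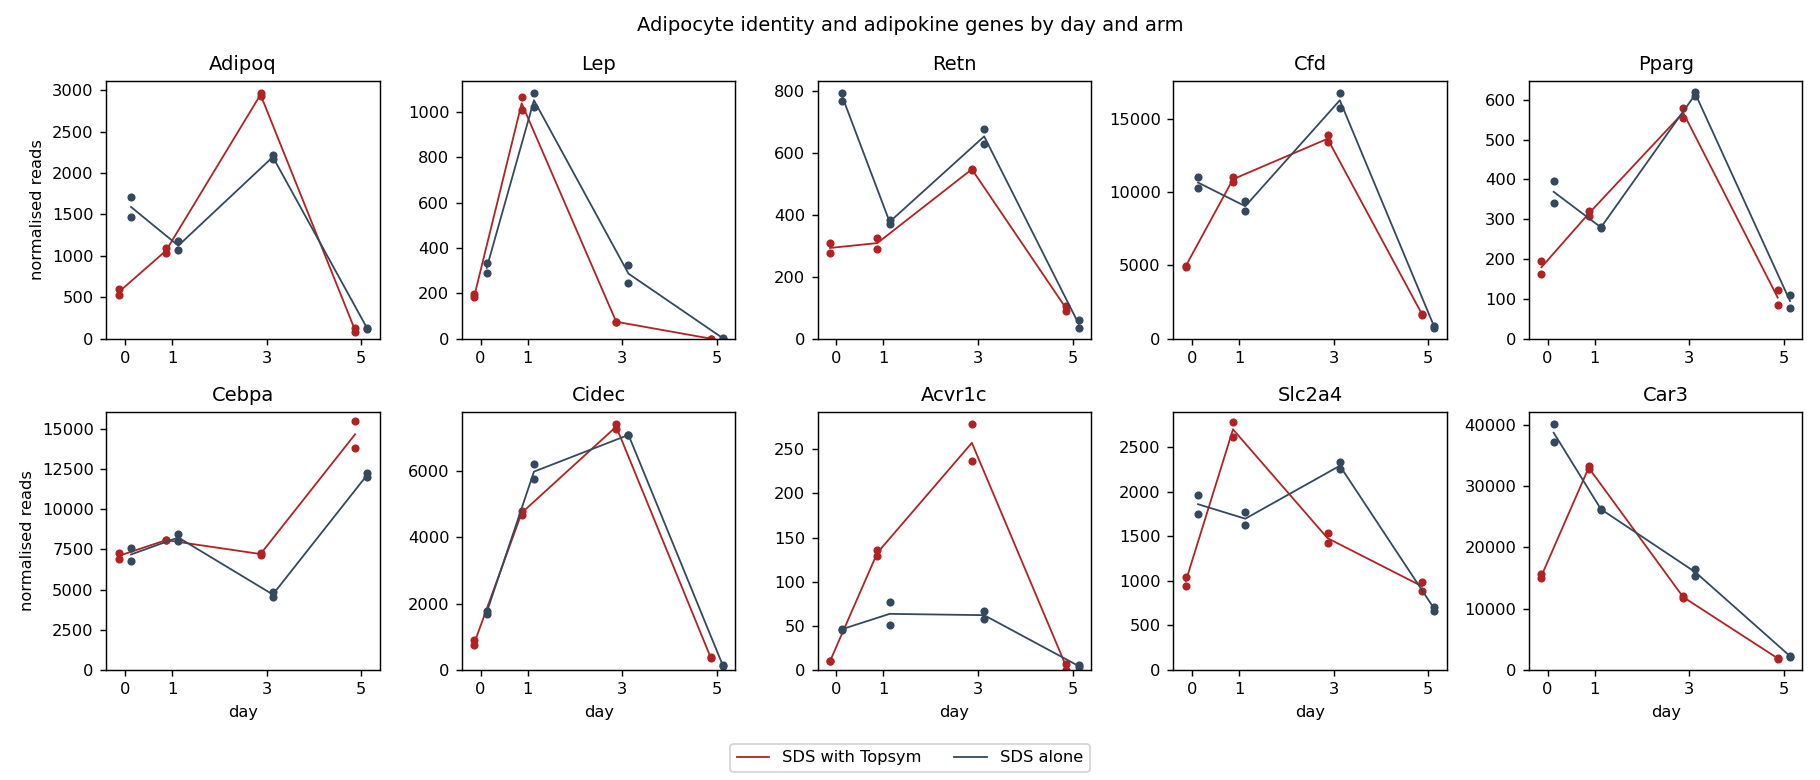
Normalised reads of the 10 genes (vertical axes, from 0) against the day (horizontal axes) in SDS with Topsym (red, drawn left of the day) and SDS alone (dark, drawn right of it). Points are libraries and lines join the means of 2. Lep peaks at day 1 in both arms, Acvr1c peaks at day 3 with Topsym, and Cebpa is highest at day 5 while the other 9 are low.

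Among the hormones, adiponectin dipped and recovered before day 5. With SDS alone Adipoq had 1473 and 1709 normalised reads at day 0, 1177 and 1070 at day 1, 2224 and 2166 at day 3, and 131 and 111 at day 5. No day overlapped another. The log2 change was -0.50 ± 0.15 (SE, adjusted p = 0.0182) at day 1 and 0.47 ± 0.15 (adjusted p = 0.0139) at day 3, both against day 0, and at day 5 the mean was 13.2-fold lower than at day 0 (log2 change -3.71 ± 0.15, adjusted p = 1.19e-12). The day 1 call was lost without replicate 2 of SDS day 0 (adjusted p = 0.159) or without replicate 2 of SDS day 1 (adjusted p = 0.132). The day 3 call was lost without replicate 1 of day 0 (adjusted p = 0.128) and without either day 3 library (adjusted p = 0.0718 and 0.0519).

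Leptin ran the other way at first. With SDS alone Lep had 334 and 291 normalised reads at day 0, 1083 and 1022 at day 1, 247 and 327 at day 3, and 0 and 2.83 at day 5. Day 1 stood above every other day, and days 0 and 3 overlapped. The rise at day 1 against day 0 was 3.37-fold (log2 change 1.75 ± 0.41, adjusted p = 0.00446), and day 3 then fell below day 1 (log2 change -1.88 ± 0.41, adjusted p = 0.00141). Both day 5 libraries together held 2 reads, against 633 at day 3 and 742 at day 0. The ratio of day 5 to day 3 was 0.00500 (95% counting interval 0.000605 to 0.0181), and that of day 5 to day 0 was 0.00456 (0.000551 to 0.0165).

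Resistin and adipsin both dipped at day 1. Retn had 768 and 794 normalised reads at day 0, 371 and 384 at day 1, 677 and 630 at day 3, and 59.8 and 35.4 at day 5 of SDS alone. It fell at day 1 (log2 change -1.05 ± 0.18, adjusted p = 0.000348), rose again at day 3 against day 1 (0.79 ± 0.18, adjusted p = 0.00202), and at day 5 its mean was 16.4-fold lower than at day 0 (adjusted p = 6.25e-12). Cfd had 10274 and 11053 normalised reads at day 0, 9379 and 8715 at day 1, 16796 and 15769 at day 3, and 837 and 750 at day 5. Its fall at day 1 was small (log2 change -0.24 ± 0.06, adjusted p = 0.00519) and was lost without replicate 2 of day 0 (adjusted p = 0.0743) or replicate 2 of day 1 (adjusted p = 0.0763), while day 3 stood 1.53-fold above day 0 (0.61 ± 0.06, adjusted p = 1.41e-07). At day 5 Cfd was 13.4-fold below day 0 (log2 change -3.75 ± 0.06, adjusted p = 7.33e-18).

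The 2 transcription factors parted. Pparg had 397 and 341 normalised reads at day 0, 279 and 280 at day 1, 620 and 608 at day 3, and 78.2 and 111 at day 5 of SDS alone. Its 4 days did not overlap. Day 1 did not pass the limma test (log2 change -0.39 ± 0.18, adjusted p = 0.129), though edgeR on recovered reads called it (adjusted p = 0.0403). Day 3 stood above day 0 (0.74 ± 0.18, adjusted p = 0.0028) and day 5 below it (-1.97 ± 0.18, adjusted p = 6.34e-08). Cebpa had 6794 and 7569 normalised reads at day 0, 8480 and 7998 at day 1, 4832 and 4546 at day 3, and 12018 and 12282 at day 5. It was lowest where Pparg was highest and highest where Pparg was lowest. Against day 0 it was higher at day 1 (log2 change 0.20 ± 0.06, adjusted p = 0.02), lower at day 3 (-0.61 ± 0.06, adjusted p = 2.19e-07) and higher at day 5 (0.76 ± 0.06, adjusted p = 8.43e-09). The day 1 call was lost without replicate 1 of day 0 (log2 change 0.12, adjusted p = 0.244) or replicate 1 of day 1 (adjusted p = 0.159). Scaled to total reads, the day 5 rise was 0.43.

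Cidec, the droplet protein, gave the largest rise of the 10 with SDS alone. It had 1695 and 1773 normalised reads at day 0, 6197 and 5761 at day 1, 7081 and 7092 at day 3, and 129 and 103 at day 5. Against day 0 it rose 3.45-fold at day 1 (log2 change 1.78 ± 0.09, adjusted p = 2.83e-10) and 4.09-fold at day 3 (2.03 ± 0.09, adjusted p = 1.21e-11). From there it fell the most of the genes with more than 10 reads a library at day 5, to a mean 60.9-fold below day 3 (log2 change -5.92 ± 0.09, adjusted p = 1.73e-17). The further rise at day 3 against day 1 was small (0.25 ± 0.09, adjusted p = 0.0375). That call was lost without any 1 of the 4 libraries (adjusted p from 0.0536 to 0.217), and under TMM, under total-read scaling and without the filter.

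The receptor gene Acvr1c was low with SDS alone, at 46.7 and 45.7 normalised reads at day 0, 50.5 and 76.4 at day 1, 66.6 and 57.3 at day 3, and 5.69 and 2.83 at day 5. Days 1 and 3 overlapped, and neither differed from day 0 by the test (adjusted p = 0.701 and 0.631). Both day 5 libraries held 6 reads in all, against 110 at day 0, a ratio of 0.0923 (95% counting interval 0.0331 to 0.207; adjusted p = 0.000324).

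Slc2a4 and Car3, both also muscle genes, took different courses. Slc2a4 had 1756 and 1967 normalised reads at day 0, 1627 and 1769 at day 1, 2333 and 2254 at day 3, and 662 and 707 at day 5 of SDS alone. Days 0 and 1 overlapped (adjusted p = 0.269). Day 3 was slightly above day 0 (log2 change 0.30 ± 0.08, adjusted p = 0.00475), a call lost without replicate 1 of day 0 (adjusted p = 0.0752), and day 5 was 2.72-fold below it (-1.44 ± 0.08, adjusted p = 1.06e-10). Car3 had 40184 and 37292 normalised reads at day 0, 26312 and 26164 at day 1, 15400 and 16474 at day 3, and 2316 and 2157 at day 5. It was lower at each later day, with log2 changes against day 0 of -0.56 ± 0.05, -1.28 ± 0.05 and -4.11 ± 0.05 (adjusted p = 4.38e-07, 3.6e-12 and 6.73e-19). It was the only one of the 10 called lower at all 3 later days with SDS alone.

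Between neighbouring days of SDS alone, day 3 against day 1 gave 6 genes higher and 3 lower (23.6% and 18.6% of all genes called), and day 5 against day 3 gave 1 higher and 9 lower (28.9% and 34.5%). At day 3 against day 1, Adipoq (log2 change 0.97 ± 0.15), Cfd (0.85 ± 0.06), Pparg (1.13 ± 0.18), Retn, Slc2a4 (0.43 ± 0.08) and Cidec were higher. Lep, Cebpa (-0.81 ± 0.06) and Car3 (-0.72 ± 0.05) were lower. At day 5 against day 3 the means were 18.2-fold lower for Adipoq, 20.5-fold for Cfd, 13.7-fold for Retn, 6.51-fold for Pparg, 7.13-fold for Car3 and 3.35-fold for Slc2a4.

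With Topsym, the day 0 libraries were already low, and 9 of the 10 genes rose at day 1. Adipoq, Cfd, Pparg, Cidec and Acvr1c went on to a peak at day 3, while Lep, Slc2a4 and Car3 peaked at day 1 and were lower at day 3. At day 5 Cebpa was again the exception to a general fall. Against day 0 of the same arm, 9 genes were called higher and 0 lower at day 1, where 20.3% of all genes were higher and 20.5% lower. At day 3, 7 were higher and 2 lower (27.0% and 28.2%), and at day 5, 1 was higher and 8 lower (32.8% and 37.5%). The 0 lower at day 1 held at an unadjusted p under 0.05, in edgeR and in DESeq2. The median change of the 10 was 1.12, 1.18 and -1.59 on the log2 scale, beside -0.03, -0.04 and -0.08 for all genes.

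These rises rest on the 2 Topsym day 0 libraries. The Topsym day 1 libraries were also set against SDS day 0, an alternative chosen after the data were seen. No share of all genes called is given for this baseline, so its calls have no general rate beside them. Lep, Cebpa, Cidec and Slc2a4 were then called higher. Adipoq (log2 change -0.58, adjusted p = 0.00602), Retn (-1.34, adjusted p = 2.51e-05) and Car3 (-0.23, adjusted p = 0.00269) were called lower. Cfd was then 0.03 (adjusted p = 0.747), Pparg -0.23 (adjusted p = 0.4), Acvr1c 1.50 (adjusted p = 0.0899), Cidec 1.45 and Slc2a4 0.54. The Topsym day 3 libraries against SDS day 0 gave Adipoq 0.89, Cfd 0.36, Pparg 0.62, Cidec 2.08 and Acvr1c 2.45, all called higher, with Retn at -0.51, Slc2a4 at -0.33, Lep at -2.05 and Car3 at -1.70, all called lower.

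Adipoq with Topsym had 602 and 524 normalised reads at day 0, 1029 and 1096 at day 1, 2968 and 2928 at day 3, and 80.7 and 123 at day 5. Its day 3 libraries were the highest of all 16. The log2 change against day 0 was 0.92 ± 0.15 at day 1 (adjusted p = 8.39e-05), 2.39 ± 0.15 at day 3 (adjusted p = 5.52e-10) and -2.48 ± 0.15 at day 5 (adjusted p = 1.58e-10). Cfd had 4923 and 4985 normalised reads at day 0, 11059 and 10725 at day 1, 13428 and 13878 at day 3, and 1648 and 1671 at day 5. It rose at day 1 (log2 change 1.14 ± 0.06, adjusted p = 1.18e-10), stood 2.76-fold above day 0 at day 3 (adjusted p = 1.84e-12) and at day 5 was 2.99-fold below day 0 (adjusted p = 2.71e-13).

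Lep with Topsym had 197 and 183 normalised reads at day 0, 1011 and 1066 at day 1, 75.3 and 73.7 at day 3, and 0 and 0 at day 5. Day 1 stood above every other day, and day 3 lay below day 0. It rose 5.47-fold at day 1 (log2 change 2.45 ± 0.41, adjusted p = 0.000151) and was lower at day 3 than at day 0 (-1.34 ± 0.41, adjusted p = 0.0114). The day 3 call was lost without replicate 1 of day 0 (adjusted p = 0.0543) or replicate 2 of day 3 (adjusted p = 0.0541). At day 5, with 0 reads in the group and a floor of 3 reads over it, Lep lay below day 3 by at least 27.9-fold and below day 0 by at least 71.0-fold. Retn had 275 and 310 normalised reads at day 0, 291 and 326 at day 1, 549 and 545 at day 3, and 105 and 87.9 at day 5. Days 0 and 1 overlapped (adjusted p = 0.786), day 3 was 1.87-fold above day 0 (adjusted p = 0.000447), and day 5 was below it (log2 change -1.60 ± 0.18, adjusted p = 6.73e-07).

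Pparg with Topsym had 196 and 163 normalised reads at day 0, 321 and 307 at day 1, 555 and 580 at day 3, and 84.7 and 121 at day 5. It was higher at days 1 and 3 (log2 change 0.81 ± 0.18 and 1.66 ± 0.18, adjusted p = 0.00173 and 7.06e-07) and lower at day 5 (-0.81 ± 0.18, adjusted p = 0.000827; -1.39 when scaled to total reads). Cebpa had 6921 and 7267 normalised reads at day 0, 8085 and 8063 at day 1, 7261 and 7155 at day 3, and 15496 and 13833 at day 5. Days 0 and 3 overlapped, and day 5 stood above all others (log2 change against day 0 1.05 ± 0.06, adjusted p = 1.03e-10; 0.46 when scaled to total reads). The small rise at day 1 (0.19 ± 0.06, adjusted p = 0.019) was lost without replicate 1 of day 0 and without either day 1 library (adjusted p from 0.0778 to 0.126).

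Cidec with Topsym had 745 and 884 normalised reads at day 0, 4679 and 4790 at day 1, 7408 and 7265 at day 3, and 361 and 374 at day 5. It rose 5.81-fold at day 1 and 9.01-fold at day 3 (adjusted p = 1.33e-12 and 3.15e-14) and at day 5 was 2.22-fold below day 0 (log2 change -1.14 ± 0.09, adjusted p = 7.09e-09; -1.72 when scaled to total reads). Acvr1c had 10.1 and 9.75 normalised reads at day 0, 129 and 136 at day 1, 278 and 237 at day 3, and 0 and 6.39 at day 5. Its means at days 1 and 3 were 13.4-fold and 26.0-fold above day 0, the largest rises against day 0 of any of the 10 in either arm (log2 change 3.62 ± 0.64 and 4.56 ± 0.64, adjusted p = 0.000234 and 1.23e-05). At day 5, 4 reads were left in both libraries, against 693 at day 3, a ratio of 0.0140 (95% counting interval 0.00379 to 0.0359), and against 22 at day 0, a ratio of 0.361 (0.0903 to 1.06). limma called day 5 lower than day 0 (adjusted p = 0.0107), but the call was lost without replicate 1 of day 5 (log2 change -0.56, adjusted p = 0.251; -3.45 without replicate 2), with a value of -1.11 at a pseudocount of 4, and the call was also lost in edgeR (adjusted p = 0.091) and in DESeq2 (adjusted p = 0.102).

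Slc2a4 with Topsym had 943 and 1046 normalised reads at day 0, 2789 and 2616 at day 1, 1535 and 1424 at day 3, and 990 and 887 at day 5. Days 0 and 5 overlapped, and day 1 was highest, 2.72-fold above day 0 (adjusted p = 3.88e-10). Day 5 did not pass the test against day 0 (log2 change -0.08 ± 0.08, adjusted p = 0.363), but did when scaled to total reads (-0.67, adjusted p = 1.07e-06). Car3 had 15718 and 14941 normalised reads at day 0, 32771 and 33282 at day 1, 11745 and 12021 at day 3, and 1807 and 1930 at day 5. It rose 2.15-fold at day 1 (adjusted p = 4.65e-11) and was then lower than day 0 at day 3 (log2 change -0.37 ± 0.05, adjusted p = 1.3e-05) and day 5 (-3.04 ± 0.05, adjusted p = 1.83e-17).

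Between neighbouring days with Topsym, day 3 against day 1 gave 5 genes higher and 4 lower (22.1% and 22.9% of all genes), and day 5 against day 3 gave 1 higher and 9 lower (27.1% and 35.1%). The gene higher at day 5 was Cebpa (log2 change 1.02, or 0.52 when scaled to total reads), and Slc2a4, lower by -0.66, was lower by -1.16 under that scaling. At day 3 against day 1 the hormone genes split. Adipoq rose (log2 change 1.47 ± 0.15, adjusted p = 3.55e-07), as did Retn (0.83 ± 0.18), Pparg (0.85 ± 0.18), Cidec (0.63 ± 0.09) and Cfd (0.33 ± 0.06), whereas Lep fell (-3.78 ± 0.41, adjusted p = 1.08e-06) along with Car3 (-1.47 ± 0.05) and Slc2a4 (-0.87 ± 0.08). Cebpa was called lower (-0.16 ± 0.06, adjusted p = 0.0339), a call lost without any 1 of its 4 libraries (adjusted p from 0.0937 to 0.14), under TMM and in edgeR. Acvr1c, 1.94-fold higher in means, did not pass in limma (adjusted p = 0.257) but passed in edgeR (adjusted p = 0.00165), in DESeq2 (adjusted p = 0.00151) and in the fit without the day 5 libraries (adjusted p = 0.00395).

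Topsym against none, day by day, changed sign for most of the genes. At day 0 the Topsym libraries were low in nearly all of the 10 genes. At day 1 the arms were close. At day 3 Topsym skin had more Cebpa and less Lep, Slc2a4, Car3 and Cfd. Adipoq and Acvr1c were also called higher then, but not when single libraries were left out. At day 5 Topsym skin had more Cidec, Cfd and Retn. Of the 10 genes, 0 were called higher and 8 lower at day 0 (10.8% and 11.2% of all genes), 3 higher and 1 lower at day 1 (5.51% and 4.29%), 3 higher and 4 lower at day 3 (20.8% and 22.9%), and 5 higher and 1 lower at day 5 (22.6% and 24.2%). The median change was -1.10, 0.07, -0.18 and 0.20 on the log2 scale at days 0, 1, 3 and 5. The medians of all genes tested were between -0.04 and 0.00. The 0 higher at day 0 held at an unadjusted p under 0.05, in edgeR and in DESeq2.

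**Figure D2:**
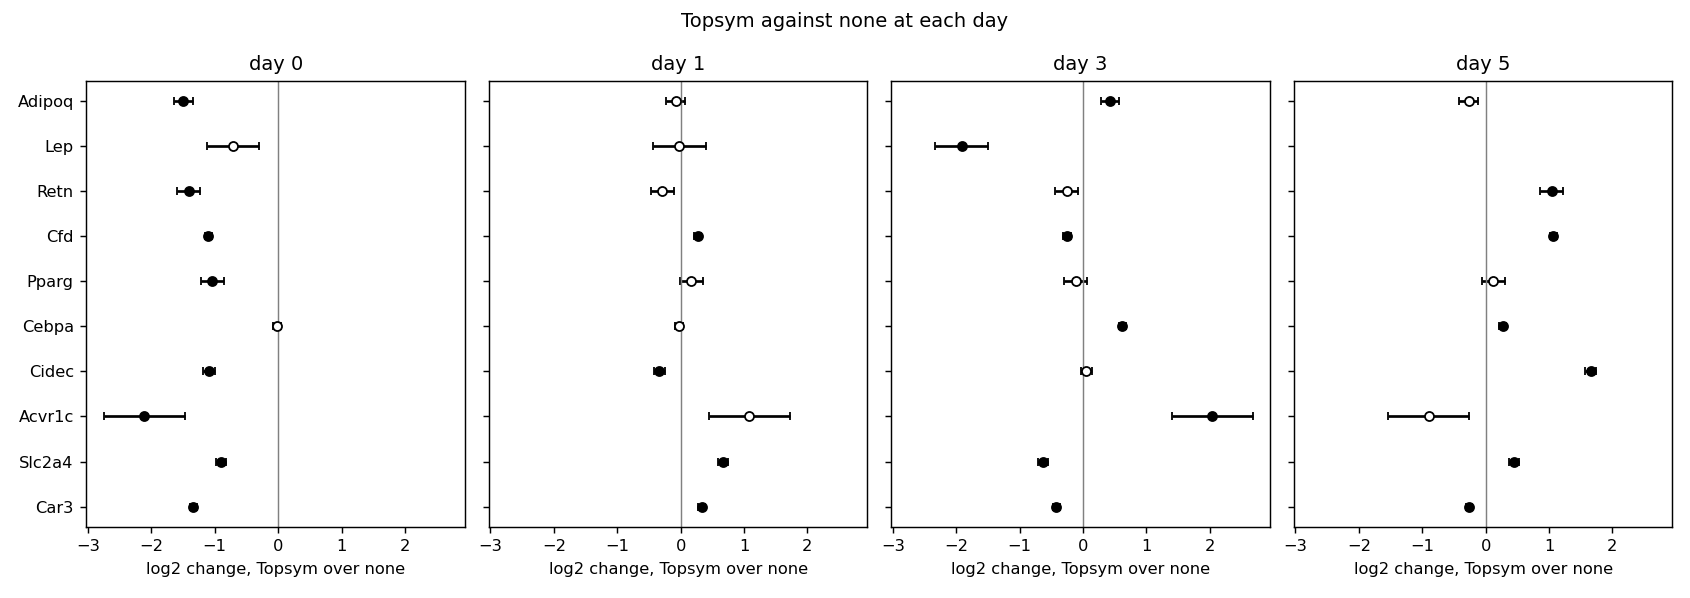
Log2 change of each gene in SDS with Topsym over SDS alone at each day (horizontal axes; one row per gene), with its standard error as the bar. Filled points have an adjusted p under 0.05, and Lep is left out at day 5, where the groups held 0 and 2 reads. At day 0 Cebpa sits at about 0 and the other 9 points lie left of it, at day 3 Acvr1c and Lep lie far apart on opposite sides, and at day 5 Cidec lies farthest right.

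At day 0, 8 of the 10 genes were called lower with Topsym and 0 higher, beside 11.2% and 10.8% of all genes tested. Adipoq had 602 and 524 normalised reads with Topsym, against 1473 and 1709 with SDS alone (log2 change -1.50 ± 0.15, adjusted p = 1.04e-06). Retn (-1.41 ± 0.18, adjusted p = 2.15e-05), Car3 (-1.34 ± 0.05), Cfd (-1.10 ± 0.06), Cidec (-1.09 ± 0.09), Pparg (-1.04 ± 0.18) and Slc2a4 (-0.90 ± 0.08) were called lower as well. Acvr1c had 10.1 and 9.75 normalised reads with Topsym, against 46.7 and 45.7 with SDS alone (log2 change -2.11 ± 0.64, adjusted p = 0.0255), a call lost without any 1 of the 4 libraries (adjusted p from 0.0853 to 0.111) and without the filter (adjusted p = 0.0521). Lep had 197 and 183 with Topsym, against 334 and 291 with SDS alone, which limma did not call (log2 change -0.71 ± 0.41, adjusted p = 0.266) and edgeR did (adjusted p = 0.000562). Cebpa overlapped between the arms (adjusted p = 0.903).

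At day 1 most genes stood close. Lep had 1011 and 1066 normalised reads with Topsym, against 1083 and 1022 with SDS alone, and Adipoq had 1029 and 1096, against 1177 and 1070. Both overlapped between the arms. Slc2a4 (log2 change 0.67 ± 0.08, adjusted p = 2.86e-05), Car3 (0.33 ± 0.05, adjusted p = 0.000425) and Cfd (0.27 ± 0.06, adjusted p = 0.00572) were higher with Topsym, the last not without replicate 2 of SDS day 1 (adjusted p = 0.0807) or replicate 1 of Topsym day 1 (adjusted p = 0.0766). Cidec was lower (-0.34 ± 0.09, adjusted p = 0.0252), a call lost without any 1 of the 4 libraries (adjusted p from 0.0558 to 0.216) and without the filter. Acvr1c had 129 and 136 normalised reads with Topsym, against 50.5 and 76.4 with SDS alone, and the arms did not overlap. limma did not call that difference (log2 change 1.08 ± 0.64, adjusted p = 0.391), while edgeR (adjusted p = 0.00977), DESeq2 (adjusted p = 0.00357) and the fit without the day 5 libraries (adjusted p = 0.00621) did.

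At day 3 the sharpest split lay between Acvr1c and Lep. Acvr1c had 278 and 237 normalised reads with Topsym, against 66.6 and 57.3 with SDS alone, 4.15-fold higher in means (log2 change 2.04 ± 0.64, adjusted p = 0.0161). Without any 1 of the 4 libraries its adjusted p was 0.0556 to 0.0916. Lep had 75.3 and 73.7 with Topsym, against 247 and 327 with SDS alone, 3.85-fold lower (-1.92 ± 0.41, adjusted p = 0.00114). Adipoq had 2968 and 2928 with Topsym, against 2224 and 2166 with SDS alone (0.43 ± 0.15, adjusted p = 0.0263). That call too was lost without any 1 of the 4 libraries (adjusted p from 0.0826 to 0.113). Cebpa was higher (0.62 ± 0.06, adjusted p = 2.41e-07), and Slc2a4 (-0.63 ± 0.08), Car3 (-0.42 ± 0.05) and Cfd (-0.25 ± 0.06) were lower. Leaving out 1 library left Cebpa as the 1 gene called higher. Cidec (0.05 ± 0.09, adjusted p = 0.705), Pparg (adjusted p = 0.664) and Retn (-0.25 ± 0.18, adjusted p = 0.289) did not pass. Retn was called lower when only the day 3 libraries were fitted (limma adjusted p = 0.0136). It was also called lower in the fit without the day 5 libraries (adjusted p = 0.0304).

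At day 5, when both arms were low, some genes stayed higher with Topsym. Cidec had 361 and 374 normalised reads with Topsym, against 129 and 103 with SDS alone, 3.15-fold higher (log2 change 1.66 ± 0.09, adjusted p = 5.28e-10). Cfd had 1648 and 1671, against 837 and 750 (1.07 ± 0.06, adjusted p = 4.42e-10). Retn had 105 and 87.9, against 59.8 and 35.4 (1.04 ± 0.18, adjusted p = 0.000179), a change of 0.68 without replicate 2 of SDS day 5 and a call lost when only the day 5 libraries were fitted (adjusted p = 0.0534). Each of these 3 genes had both Topsym libraries above both of SDS alone. Adipoq had 80.7 and 123 with Topsym, against 131 and 111 with SDS alone. The arms overlapped and the difference did not pass (-0.27 ± 0.15, adjusted p = 0.147), except without replicate 2 of Topsym day 5 (-0.57, adjusted p = 0.00108) and when scaled to total reads (-0.50, adjusted p = 0.0106). Pparg also overlapped (adjusted p = 0.614).

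Slc2a4 at day 5 was higher with Topsym (0.45 ± 0.08, adjusted p = 0.000209; 0.22 when scaled to total reads) and Car3 lower (-0.26 ± 0.05, adjusted p = 0.000621; -0.49 when scaled to total reads). Cebpa was higher (0.27 ± 0.06, adjusted p = 0.00145), which total-read scaling ended (0.04, adjusted p = 0.617). Under that scaling 4 of the 10 genes were higher and 2 lower, and over all genes 2411 were higher and 6872 lower, against 4339 and 4637 here. Acvr1c had 4 reads in the Topsym group and 6 in SDS alone, a ratio of 0.837 (95% counting interval 0.174 to 3.53). For Lep, at 0 and 2 reads, no fold is given.

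The changes between days also differed between the arms. From day 1 to day 3, the difference between the arms was called for 6 of the 10 genes, 2 higher and 4 lower with Topsym (16.7% and 18.2% of all genes). The difference, Topsym minus SDS alone on the log2 scale, was -1.90 ± 0.58 for Lep (adjusted p = 0.0182), lost without any 1 of 4 libraries (adjusted p from 0.0522 to 0.0773), and -1.30 ± 0.11 for Slc2a4 (adjusted p = 1.17e-07). From day 3 to day 5 it was called for 7 genes, 4 higher and 3 lower (19.0% and 18.4%). The difference was 1.61 ± 0.13 for Cidec (adjusted p = 7.13e-08), 1.32 ± 0.08 for Cfd (adjusted p = 3.83e-09) and 1.30 ± 0.26 for Retn (adjusted p = 0.000752), whose falls were smaller with Topsym. It was -2.93 ± 0.91 for Acvr1c (adjusted p = 0.0175), with 4 reads left at day 5 with Topsym and 6 with SDS alone. That call was lost in edgeR (adjusted p = 0.0661), in DESeq2 (adjusted p = 0.0578) and without any 1 of 3 libraries (adjusted p from 0.0546 to 0.0613), and the value was -1.49 without replicate 1 of Topsym day 5.

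Ratios within a library do not depend on its scaling, and the genes also moved relative to Adipoq. Per kilobase, Lep stood at 40.5% and 40.0% of Adipoq at day 1 with Topsym, against 37.9% and 39.3% with SDS alone. At day 3 it had dropped to 1.04% and 1.04% with Topsym, against 4.58% and 6.21% with SDS alone, and at day 0 it had been 13.5% and 14.4%, against 9.33% and 7.01%. At days 0 and 3 the arms did not overlap. At day 1 both Topsym libraries were slightly above both of SDS alone.

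**Figure D3:**
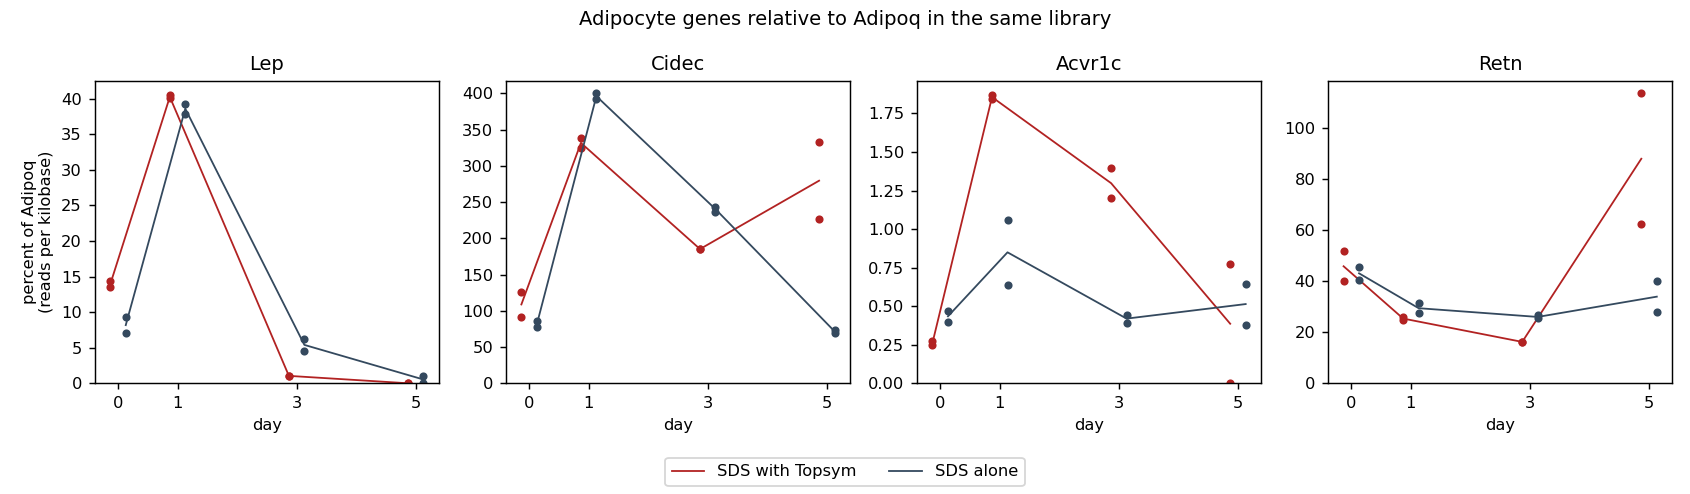
Reads per kilobase of Lep, Cidec, Acvr1c and Retn as a percentage of Adipoq in the same library (vertical axes, from 0) against the day (horizontal axes), in SDS with Topsym (red, left) and SDS alone (dark, right). Points are libraries and lines join the means of 2. Lep reaches 37.9 to 40.5% of Adipoq at day 1 in both arms, and Acvr1c is higher with Topsym at days 1 and 3.

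Cidec rose relative to Adipoq from day 0 to day 1 in both arms. At day 0 Cidec stood at 92.0% and 126% of Adipoq with Topsym, against 85.6% and 77.2% with SDS alone. At day 1 it was 338% and 325% with Topsym, against 392% and 401% with SDS alone. At day 3 it was 186% and 185% with Topsym, against 237% and 244% with SDS alone. At day 5 it was 333% and 226% with Topsym, against 73.6% and 69.6% with SDS alone. Acvr1c was 1.87% and 1.84% of Adipoq at day 1 with Topsym, against 0.638% and 1.06% with SDS alone, and 1.39% and 1.20% at day 3, against 0.445% and 0.394%. Its Topsym libraries at days 1 and 3 were thus above those of SDS alone also relative to Adipoq. No test was run on these ratios.

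Genes of several other cell types moved in the same libraries, and their part in the changes of the 10 genes was not tested. The summed normalised reads of 10 fast muscle genes, such as Ckm and Acta1, were 166995 to 169352 at day 0 with Topsym, against 494117 to 496687 with SDS alone. At day 1 they were 544167 to 550432, against 365773 to 376340, at day 3 228274 to 234571, against 469302 to 477595, and at day 5 139837 to 141704, against 91575 to 96206. Of these 10 genes 9 passed the filter. Topsym against none gave 9 lower at day 0, 8 higher at day 1, 9 lower at day 3 and 9 higher at day 5, with medians of -1.44, 0.62, -1.02 and 0.54. At day 5 the 9 higher were 5 when scaled to total reads. Slc2a4, with -0.90, 0.67, -0.63 and 0.45, took the same 4 signs, and so did Cfd, with -1.10, 0.27, -0.25 and 1.07, all called. Pparg took them too, at -1.04, 0.17, -0.11 and 0.12, of which the first passed the test. The medians of the 20 further fat cell genes described below also took these 4 signs, at -0.62, 0.32, -0.15 and 0.41. Adipoq, Lep, Retn, Cebpa, Cidec and Acvr1c did not take all 4. Car3 took the same signs at days 0, 1 and 3 (-1.34, 0.33 and -0.42) and the opposite one at day 5 (-0.26). With SDS alone, Car3 fell by 1.28 at day 3 against day 0 while the fast muscle sum stood at 469302 to 477595, against 494117 to 496687. In that comparison 2 of the 9 fast muscle genes tested were higher and 5 lower, with a median of -0.22 and a lowest change of -1.04. The sum of 6 slow muscle genes was at most 481 normalised reads in any library.

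**Figure D4:**
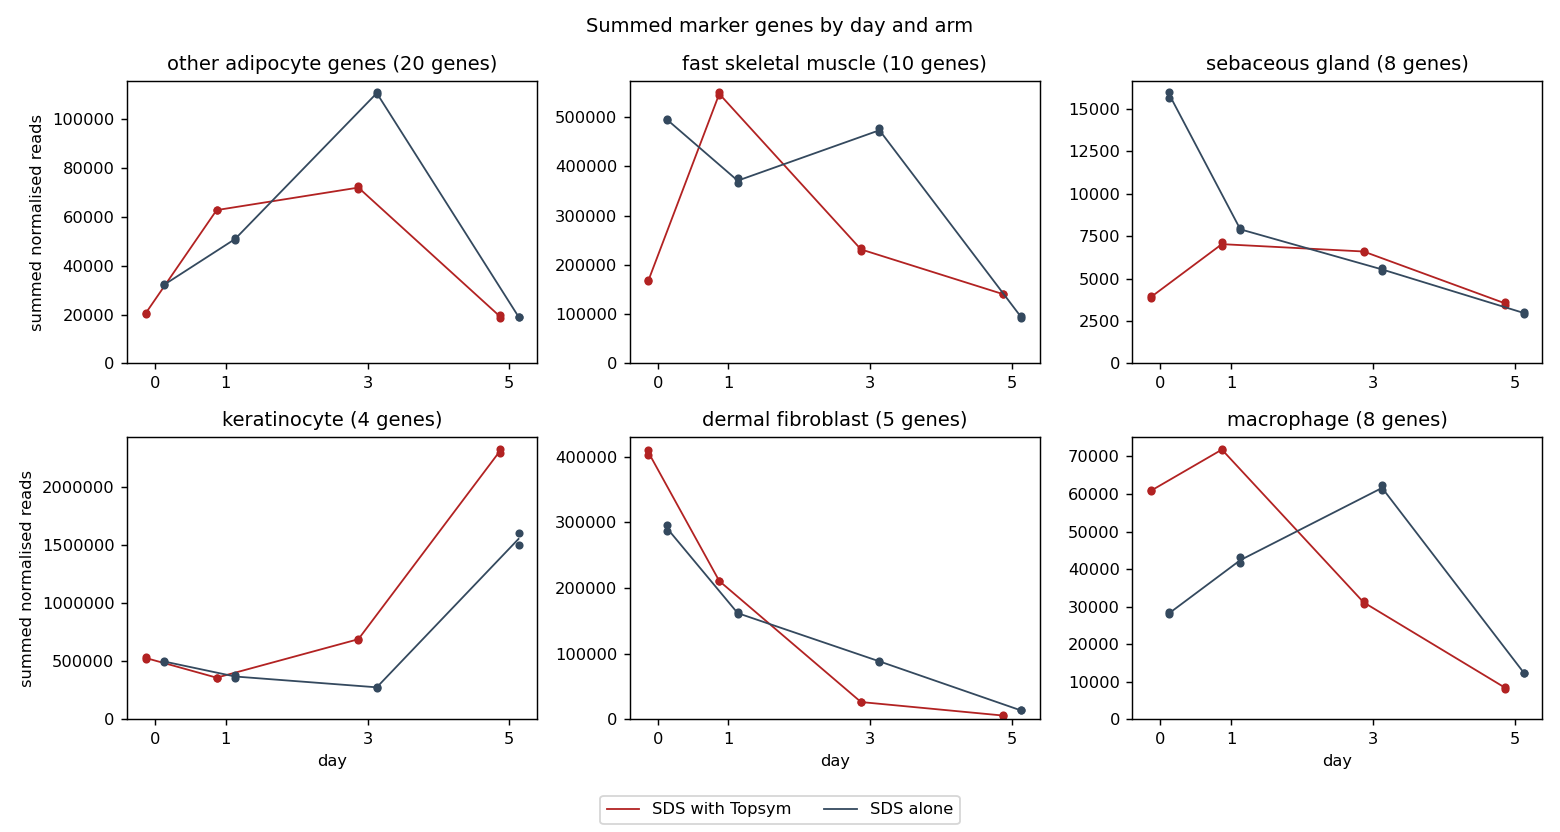
Summed normalised reads (vertical axes, from 0) of 6 gene lists against the day (horizontal axes), in SDS with Topsym (red, left) and SDS alone (dark, right). Points are libraries and lines join the means of 2. The fast muscle sum moves up and down between the arms from day to day, and the keratinocyte sum is highest at day 5.

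Cebpa is also made by keratinocytes, the cells of the epidermis. The sum of 4 keratinocyte genes (Krt5, Krt14, Krt1 and Krt10) was 492345 to 503495 normalised reads at day 0, 354011 to 382969 at day 1, 271453 to 278757 at day 3 and 1505380 to 1606860 at day 5 of SDS alone. With Topsym it was 519105 to 537511 at day 0, 357754 to 358981 at day 1, 684563 to 696265 at day 3 and 2299130 to 2333880 at day 5. Cebpa was lowest at day 3 of SDS alone and highest at day 5 in both arms, as that sum was, but they differed elsewhere. At day 1 against day 0 Cebpa was called higher in both arms, while all 4 keratinocyte genes with Topsym and 3 of 4 with SDS alone were called lower. At day 3 with Topsym the sum stood above day 0, while Cebpa overlapped its day 0 libraries. All 4 keratinocyte genes were called higher with Topsym at day 3 and at day 5. The sum of 8 sebaceous gland genes was 3856 to 3972 at day 0 with Topsym, against 15663 to 15994 with SDS alone. All 8 were called lower in that comparison, beside 8 of the 10 genes followed here.

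Genes of cells around the fat moved too. The sum of 5 dermal fibroblast genes, such as Col1a1 and Dcn, fell over the days of SDS alone, at 287244 to 295889, 159938 to 163519, 87784 to 88562 and 13253 to 13282 normalised reads at days 0, 1, 3 and 5. With Topsym it was 403601 to 410282, 210541 to 211006, 25982 to 26312 and 5538 to 5659. Day 5 thus had little RNA of these fibroblast genes, and all 5 were called lower at day 5 against day 0 in both arms. The sum of 20 further fat cell genes fell less. With SDS alone it was 19004 to 19181 normalised reads at day 5, against 32082 to 32316 at day 0. With Topsym it was 18628 to 19691 at day 5, against 20397 to 20685 at day 0. A sum follows its most abundant genes. Gene by gene, 16 of the 20 were called lower and 1 higher with SDS alone, with a median log2 change of -1.85. With Topsym 15 were lower and 4 higher, with a median of -1.37. Of all genes tested, 35.8% were lower and 30.7% higher with SDS alone, and 37.5% and 32.8% with Topsym. Adipoq and Cfd were above day 0 at day 3 of SDS alone while the fibroblast sum was below it.

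The sum of macrophage genes differed between the arms at each day, while that of neutrophil genes overlapped between them at day 1. The part of these cells in the changes of the 10 genes was not tested either. The sum of 8 macrophage genes was 60748 to 61027 normalised reads at day 0 with Topsym, against 28129 to 28454 with SDS alone, and 71647 to 72022, against 41620 to 43141, at day 1. At day 3 it was 30822 to 31429 with Topsym, against 60966 to 62290 with SDS alone, and at day 5 7999 to 8663, against 12333 to 12411. All 8 were called higher with Topsym at days 0 and 1 and lower at days 3 and 5. The 9 neutrophil genes summed to at most 964 normalised reads in the day 0 and day 1 libraries of both arms. At day 3 their sum was 2567 to 2739 with Topsym, against 62744 to 63280 with SDS alone, and at day 5 36333 to 36379, against 261908 to 271448. Of the 8 tested, 7 were lower with Topsym at day 3 and 8 at day 5. All 4 endothelial genes were lower with Topsym at day 3.

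Against day 0, the medians of other fat cell genes shared the sign of the 10 except at day 1 of SDS alone. Of 20 further fat cell genes (droplet, lipase, uptake and secreted genes), 7 were higher and 4 lower at day 1 against day 0 of SDS alone, 10 higher and 4 lower at day 3, and 1 higher and 16 lower at day 5. Their median changes were 0.14, 0.67 and -1.85, beside -0.18, 0.36 and -3.73 for the 10. Of all genes tested, 12.8% were higher and 13.5% lower at day 1, 25.4% and 24.2% at day 3, and 30.7% and 35.8% at day 5 in these comparisons. With Topsym, 15 were higher and 0 lower at day 1, 13 higher and 2 lower at day 3, and 4 higher and 15 lower at day 5. The shares of all genes were 20.3% and 20.5%, 27.0% and 28.2%, and 32.8% and 37.5%. The 0 lower at day 1 also held in edgeR and DESeq2. The median changes of the 20 with Topsym were 1.35, 1.51 and -1.37, beside 1.12, 1.18 and -1.59 for the 10. Against SDS day 0 instead, 8 of the 20 were higher and 2 lower at day 1, and 11 higher and 5 lower at day 3. No shares of all genes are given for that baseline. Pck1, whose enzyme feeds glycerol synthesis in fat, led the rises in both arms. It had 255 and 282 normalised reads at day 0, 2445 and 2482 at day 1, 5898 and 5841 at day 3 and 15.6 and 32.6 at day 5 of SDS alone. With Topsym it had 125 and 131, 3114 and 3097, 9563 and 10096, and 28.2 and 43.1 on the same days. Cd36, a fatty acid carrier, was also among the leading genes, with log2 changes of 2.71 ± 0.09 at day 1 and 3.35 ± 0.09 at day 3 with Topsym (1.59 and 2.22 against SDS day 0).

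Topsym against none in these 20 genes gave 0 higher and 13 lower at day 0, 5 higher and 0 lower at day 1, 6 higher and 7 lower at day 3, and 9 higher and 5 lower at day 5. Over all genes these shares were 10.8% and 11.2%, 5.51% and 4.29%, 20.8% and 22.9%, and 22.6% and 24.2%. The 5 at day 1 were 9 in edgeR and 10 in DESeq2, and the 6 at day 3 were 2 without replicate 2 of SDS day 3 and 3 without replicate 2 of Topsym day 3. At day 3 Adrb3, the fat beta-adrenergic receptor, was higher (log2 change 1.78 ± 0.28, adjusted p = 5.63e-05), and Mrap, a partner of the ACTH receptor, was lower (-2.27 ± 0.31, adjusted p = 1.28e-05). At day 5 the droplet protein Plin1 had 68.6 and 73.5 normalised reads with Topsym, against 2.85 and 9.92 with SDS alone (3.47 ± 0.30, adjusted p = 1.26e-07). Trarg1, a protein of GLUT4 vesicles, was higher in the same comparison (2.32 ± 0.23, adjusted p = 5.15e-07), as was Gpd1, which makes glycerol phosphate (1.73 ± 0.09, adjusted p = 2.88e-10).

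Among 10 further regulators of fat cell formation, Klf15 and Cebpd led the rises with SDS alone. Klf15 was higher at days 1 and 3 against day 0 (log2 change 1.52 ± 0.12 and 1.86 ± 0.12), and Cebpd likewise (0.84 ± 0.07 and 1.60 ± 0.07). In all, 3 were higher and 2 lower at day 1, 4 and 4 at day 3, and 5 and 5 at day 5 (3 higher at day 5 when scaled to total reads), beside 12.8% and 13.5%, 25.4% and 24.2%, and 30.7% and 35.8% of all genes. The medians of these regulators were 0.02, -0.02 and 0.06. Topsym against none gave 1 higher and 4 lower at day 3 (20.8% and 22.9% of all genes), and 1 and 6 at day 5 (22.6% and 24.2%). At day 3 Cebpd (-1.13 ± 0.07, adjusted p = 1.31e-09) and Klf15 (-0.97 ± 0.12, adjusted p = 4.97e-06) were lower and Klf5 (0.92 ± 0.06, adjusted p = 2.63e-09) higher.

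For the receptors of adiponectin, leptin and insulin, 3 of 7 genes were higher and 1 lower at day 1 of SDS alone, 4 higher and 2 lower at day 3, and 3 higher and 4 lower at day 5, each against day 0 and beside the same shares of all genes. Irs2, an adaptor of the insulin receptor, rose the most at days 1 and 3 (log2 change 1.53 ± 0.07 and 1.63 ± 0.07), followed by the receptor itself, Insr (0.60 ± 0.06 and 1.06 ± 0.06). With Topsym against none, 0 were higher and 6 lower at day 3 (20.8% and 22.9% of all genes), among them the leptin receptor Lepr, which had 280 and 249 normalised reads with Topsym, against 538 and 501 with SDS alone (-0.97 ± 0.26, adjusted p = 0.00538).

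For ALK7, the product of Acvr1c, 8 genes of ligands, type II receptors and Smad mediators were measured. Topsym against none gave 1 higher and 1 lower at day 3, where 20.8% and 22.9% of all genes were called, and 0 higher and 4 lower at day 5, where 22.6% and 24.2% were. The 4 were 2 when only the day 5 libraries were fitted. At day 3, where Acvr1c was higher with Topsym, Inhbb, the subunit of activin B, had 526 and 536 normalised reads with Topsym, against 908 and 883 with SDS alone (log2 change -0.75 ± 0.16, adjusted p = 0.000971). The type II receptor Acvr2a was higher (0.48 ± 0.10, adjusted p = 0.00122). Of 8 genes of fat precursors and stroma, 0 were higher and 6 lower with Topsym at day 3, beside those 20.8% and 22.9%. Pi16 (-2.31 ± 0.06), Pdgfra (-1.53 ± 0.07) and Thy1 (-1.24 ± 0.06) led them.

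Over the 8 group means, the profiles of the 10 genes differed in likeness. The measure was the root mean square difference of log2 levels after each profile was centred on its own mean, where 0 would be the same shape. The closest pairs were Cfd and Retn (0.42) and Cfd and Adipoq (0.50). Lep and Cebpa stood furthest apart (3.99). Outside the 10, among 12827 genes compared, the nearest profiles were Ces1d for Adipoq (0.30), Gldn for Retn (0.29), Prkg1 for Cfd (0.25), Sgcd for Pparg (0.22) and Zfp706 for Cebpa (0.09). They were Trarg1 for Cidec (0.55), Cyp2e1 for Acvr1c (0.64), Trim72 for Slc2a4 (0.16) and Padi2 for Car3 (0.24). The profile of Lep had no near match, with Cd209e the nearest at 1.29. The next nearest were Gprin3 and Abcd2 for Adipoq, Itga8 and Actg2 for Lep, Tmem204 and Slco5a1 for Retn, Smoc1 and Enpp4 for Cfd, and Nr1h3 and Dmd for Pparg. For the other 5 they were Trim29 and Dhcr7 for Cebpa, Slc7a10 and Timp4 for Cidec, St6galnac5 and Peg3 for Acvr1c, Mybpc1 and Plpp1 for Slc2a4, and Ano5 and Enpp2 for Car3. These values describe 8 group means and carry no test.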

How the data were processed

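RNA of whole mouse skin was measured in 16 libraries, extracted with a column kit and made into libraries with a strand-specific kit, per the labels' protocols. The authors deposited 1 table of normalised signal, a read count over a size factor, for 32078 genes. Per the submitters' processing notes, the tools were Trim Galore 0.6.7, HISAT2 2.2.1, featureCounts 2.0.3 and DESeq2 2.11.40.8, and the build was mm10. Every library's deposited values came out whole (100%, tolerance 1e-04) when divided by the value of 1 read, which gave back the read counts. Size factors computed from these counts by the median of ratios matched the deposited scaling. Libraries held 15199656 to 32066246 recovered reads.

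Groups came from the titles. The 10 genes, the lists of other genes and the tests were chosen with earlier results of these data known. A gene was tested if 2 or more libraries had a signal of at least 10. limma 3.58.1 (R 4.3.3) fitted log2(signal + 1) over all 8 groups, letting the prior variance follow the level, with 8 residual degrees of freedom. In each of 16 comparisons, p-values were adjusted by Benjamini and Hochberg over all 19189 genes, with a threshold of 0.05. Besides the 10 genes, at most 3 of the largest called changes of each list and comparison were eligible to be named, plus the 3 nearest profiles of each gene among genes with a mean of at least 100 in some group. Fabp4, Plin1 and Ucp1 at day 0 were named as markers. The fit was tested on simulated data. For Lep and Acvr1c at day 5, where groups had 0 to 6 reads in all, ratios of recovered reads carry a 95% counting interval, or with 0 reads a floor of 3 reads over the group.

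Other settings tried were TMM factors, no filter, a pseudocount of 4, fitting only the libraries compared, leaving out each library, a block for the replicate number, a robust prior, and the count tests of edgeR 4.0.16 and DESeq2 1.42.0 on recovered reads. Across comparisons edgeR called 2524 to 13235 genes and DESeq2 2642 to 13031. Scaling to total reads, a fit without the day 5 libraries, SDS day 0 as the baseline of the Topsym arm, and the search for TTGCGCAA were added after the data were seen. Scripts ran in Python 3.11.15 with numpy 2.4.6, pandas 2.3.3 and scipy 1.17.1. Replicate numbers in the titles were not taken as pairs: deviations of same-numbered libraries correlated at -0.190 to 0.223 over 28 pairs of groups, with 2 over 0.1.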

Additional observations from a re-analysis of the deposited data

Results flagged for a closer look

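Each value here is the change between 2 days in the Topsym arm minus the same change in the SDS alone arm, on the log2 scale, and was called by that interaction term (limma, adjusted p under 0.05 over all genes tested). Groups had 2 libraries each.

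From day 1 to day 3, leptin and the transporter of glucose into fat and muscle changed more negatively with Topsym, at -1.90 ± 0.58 (SE, adjusted p = 0.0182) for Lep and -1.30 ± 0.11 (adjusted p = 1.17e-07) for Slc2a4. Car3 (-0.75 ± 0.07, adjusted p = 4.22e-07) and Cfd (-0.52 ± 0.08, adjusted p = 7.4e-05) differed the same way. Cebpa (0.65 ± 0.08, adjusted p = 1.15e-05) and Cidec (0.39 ± 0.13, adjusted p = 0.0268) differed the other way. The calls of Lep and Cidec were lost when single libraries were left out, Lep's in 4 cases (adjusted p from 0.0522 to 0.0773) and Cidec's in 7 (0.0567 to 0.104), and Cidec's also without the filter (adjusted p = 0.052).

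From day 3 to day 5 the difference was positive for Cidec (1.61 ± 0.13, adjusted p = 7.13e-08), Cfd (1.32 ± 0.08, adjusted p = 3.83e-09), Retn (1.30 ± 0.26, adjusted p = 0.000752) and Slc2a4 (1.09 ± 0.11, adjusted p = 1.42e-06). It was negative for Acvr1c (-2.93 ± 0.91, adjusted p = 0.0175), Adipoq (-0.69 ± 0.21, adjusted p = 0.0142) and Cebpa (-0.35 ± 0.08, adjusted p = 0.00341). Without replicate 1 of Topsym day 5, Adipoq stood at -0.39 (adjusted p = 0.0556) and Acvr1c at -1.49 (adjusted p = 0.0407), and without replicate 1 of SDS day 5 Adipoq was not called (adjusted p = 0.0598). The call of Acvr1c, which had 4 reads at day 5 with Topsym and 6 with SDS alone, was lost in edgeR (adjusted p = 0.0661), in DESeq2 (adjusted p = 0.0578), with only the libraries compared (adjusted p = 0.0614) and without any 1 of 3 libraries (adjusted p from 0.0546 to 0.0613). Scaled to total reads, Cebpa stood at -0.59.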

How the results depend on the processing

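For the 10 genes, 160 changes (10 genes in 16 comparisons) and the counts of them called were recomputed. The robust prior and the replicate block changed no call or direction, and the replicate numbers do not pair the libraries (median correlation of deviations 0.000838). The 28 changes printed for genes of other lists kept call and direction in all 393 alternative fits. They were drawn from at most 3 of the largest called changes of each list and comparison, a choice that favours stable calls. Of 416 counts of genes called in those lists, 64 moved by over 3/2 times and by over 1 gene under some alternative. Where a value changed, the cause was not tested.

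Calls became fewer or more under several settings. For SDS day 0 as the baseline of the Topsym arm, no share of all genes called is given. With that baseline the arm had 4 genes higher and 3 lower at day 1, and 4 lower at day 3. Then Adipoq stood at -0.58, Retn at -1.34, Pparg at -0.23 and Car3 at -0.23 at day 1, and Retn at -0.51 and Slc2a4 at -0.33 at day 3, all with the opposite sign to their change from Topsym day 0. For Topsym against none at day 1, the count lower was 0 without the filter and 2 without the day 5 libraries. For the difference between the arms from day 1 to day 3, the count higher was 1 without the filter and 4 in each of the fit of only the libraries compared, the fit without the day 5 libraries, edgeR and DESeq2. The added gene calls include Adipoq (adjusted p = 0.000534 in edgeR, 0.000486 in DESeq2, 0.0378 under TMM).

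Scaled to total reads, the count lower for Topsym against none at day 5 was 2. Values then reversed for Cebpa with Topsym at day 3 against day 0 (-0.0597), Cebpa for Topsym against none at day 0 (0.0046), Pparg for Topsym against none at day 5 (-0.11), and the difference between the arms from day 3 to day 5 for Pparg (-0.0029) and Car3 (-0.0793). That difference for Lep, with 0 and 2 reads at day 5, was -1.82 in edgeR and -0.16 in DESeq2. TMM moved the median change of all genes by at most 0.0691 and total-read scaling by at most 0.582. Total-read scaling turned the calls over all genes to 3859 higher and 9182 lower for SDS alone at day 5 against day 0 (5897 and 6862 as deposited), 3854 and 8385 at day 5 against day 3 (5551 and 6623), and with Topsym 3106 and 10668 (6286 and 7191) and 2530 and 10257 (5207 and 6736). For Topsym against none it gave 869 and 1040 at day 1 (1058 and 823) and 2411 and 6872 at day 5 (4339 and 4637), and for the difference between the arms from day 3 to day 5 2284 and 5354 (3639 and 3527).

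With each library left out in turn, the counts ran from 2 to 4 lower for SDS alone at day 1 and 3 to 5 higher at day 3, and from 1 to 2 lower for Topsym at day 3, each against day 0. For Topsym against none they were 0 lower at day 1, 1 higher at day 3, and 1 to 3 lower at day 5. For the difference between the arms they ran from 1 to 2 higher from day 1 to day 3 and from 1 to 3 lower from day 3 to day 5. Changes that took both signs, none of them called in the full data, were Lep at day 3 against day 0 (-0.33 to 0.0674) and Acvr1c at day 3 against day 1 (-0.30 to 0.29) of SDS alone. With Topsym against its day 0 they were Retn at day 1 (-0.0103 to 0.16) and Cebpa at day 3 (-0.0118 to 0.0585). For Topsym against none they were Cebpa at day 0 (-0.0939 to 0.0619) and day 1 (-0.0708 to 0.0137), Lep at day 1 (-0.0606 to 0.0234), and at day 5 Adipoq (-0.57 to 0.0320), Pparg (-0.13 to 0.38) and Acvr1c (-2.34 to 0.55). For the difference between the arms they were Retn from day 1 to day 3 (-0.0458 to 0.12), and Lep (-0.0221 to 1.92) and Pparg (-0.0197 to 0.49) from day 3 to day 5.

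Depth limits Lep and Acvr1c at day 5, where groups held 0 to 6 reads. Topsym against none at day 5 was called for neither in the full data, but was for Lep (-1.94, adjusted p = 1.14e-05) without replicate 1 of SDS day 5 and for Acvr1c (-2.34, adjusted p = 0.000418) without replicate 2 of Topsym day 5. In both cases 1 group was left with 1 library, assumed to vary like the others.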
